A study of Mus with 18 samples.

Results

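The genes described here are 10 negative regulators of MAP kinase signalling and of cytokine mRNA: the MAP kinase phosphatases Dusp1, Dusp2, Dusp4, Dusp5, Dusp6, Dusp10 and Dusp16, and the tristetraprolin family Zfp36, Zfp36l1 and Zfp36l2. They were taken by gene symbol from 2 tables of 21401 genes each, 1 for C2C12 cells and 1 for mouse gastrocnemius muscle, and all 10 were found in both. The RNA-seq study asked how moringa isothiocyanate-1 (MIC-1), an isothiocyanate from Moringa oleifera seeds, alters the response to lipopolysaccharide (LPS), the bacterial cell wall component that sets off innate immune signalling. Each experiment had 3 groups of 3 libraries, 18 libraries in all.

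All samples were labelled wild type. The C2C12 groups, a mouse myoblast line, were a saline vehicle control, LPS at 1 μg/mL, and 10 μM MIC-1 together with 1 μg/mL LPS for 24 h; the study's text on the sequenced cells gives a different MIC-1 dose. The muscle groups were C57BL/6 male mice that received saline vehicle, LPS at 10 mg/kg by intraperitoneal injection, or MIC-1 at 80 mg/kg in 10% DMSO by oral gavage on 3 days and then the same LPS dose. Gastrocnemius was taken 16 h after LPS, and the age of the mice is not given in the sources used here. The sources disagree on the vehicle, since the labels name saline for both controls and the study's text names ethanol for cells and DMSO for mice, so whether control and LPS-MIC-1 shared a vehicle is not known. No group received MIC-1 without LPS in either experiment. The labels do not say whether the 3 cell libraries of a group came from separate cultures, so p-values measure only the spread between these libraries.

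MAP kinases are switched on by phosphorylation and switched off by dual-specificity phosphatases, many of which are themselves made in response to the pathway. Dusp1, Dusp2, Dusp4 and Dusp5 encode inducible nuclear enzymes, Dusp6 a cytoplasmic enzyme selective for ERK, and Dusp10 and Dusp16 enzymes that act mainly on the stress kinases JNK and p38. Tristetraprolin, the product of Zfp36, and its relatives bind AU-rich elements in cytokine and growth factor mRNAs and recruit the CCR4-NOT deadenylase, and p38 signalling both induces tristetraprolin and holds it in check.

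Levels were read as FPKM, the fragments per kilobase of transcript scaled to the size of the library, which corrects for transcript length. The summed FPKM was 547475 to 797734 per C2C12 library and 634197 to 740810 per muscle library, and read counts per library were not used here, so no counting interval is given. The libraries labelled C2C12 control and LPS went against their label. Their summed FPKM over 10 macrophage markers was 8633 to 8687 in control and 6315 to 6509 in LPS, with Lyz2 at 4598 to 4761 and 1786 to 1866. Of the 8 myogenic markers listed, Myod1, Myf5, Myog and Pax7 were under 0.1 in every one of these libraries, while Des reached 0.277 in control and 1.19 in LPS. In the LPS-MIC-1 libraries the same macrophage sum was 79.1 to 253, highest in replicate 1, and the sum over 8 myogenic markers was 702 to 911, against 0.285 to 0.823 in control and 1.05 to 2.51 in LPS. Macrophage and myogenic transcripts therefore moved with the group in both C2C12 comparisons that use LPS-MIC-1, no such comparison can be made without these libraries, and the marker difference cannot be told apart from treatment. Both groups of the comparison of LPS with control carried macrophage markers. The muscle libraries carried their markers, with a fibre gene sum of 121458 or more in each.

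In a comparison, a gene was called higher or lower when its absolute log2 fold change of FPKM + 0.1 was over 1 and its limma p-value, adjusted by Benjamini-Hochberg over all genes with a mean FPKM over 1, was under 0.001 in C2C12 or under 0.05 in muscle. Fold changes below are on this scale, and errors are standard errors unless stated otherwise. All 10 members passed the filter in C2C12 and 7 in muscle. Dusp2, Dusp4 and Dusp5 did not pass in muscle and are given there as levels only. An exact 2-sided permutation test over 3 against 3 libraries cannot go below p = 0.1, so none was run for single genes.

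In the libraries labelled C2C12, LPS went with higher phosphatase mRNA. Dusp1, Dusp4, Dusp5, Dusp10 and Dusp16 rose between 4.29-fold and 13.9-fold against control, and Zfp36l2 fell. That made 5 of 10 members higher, where 10.9% of the 10877 genes tested were called higher, and 1 lower, where 10% were (20.9% in either direction). With LPS-MIC-1 against LPS the pattern split, since 6 members were called lower (25.6% of all genes) and Dusp10 alone was called higher (24.3%). With 49.9% of all genes called in either direction there, the 7 calls of the members have to be read against that share. Against control, LPS-MIC-1 had 1 member higher (21.1% of all genes) and 4 lower (22.1%, and 43.3% in either direction).

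**Figure D1:**
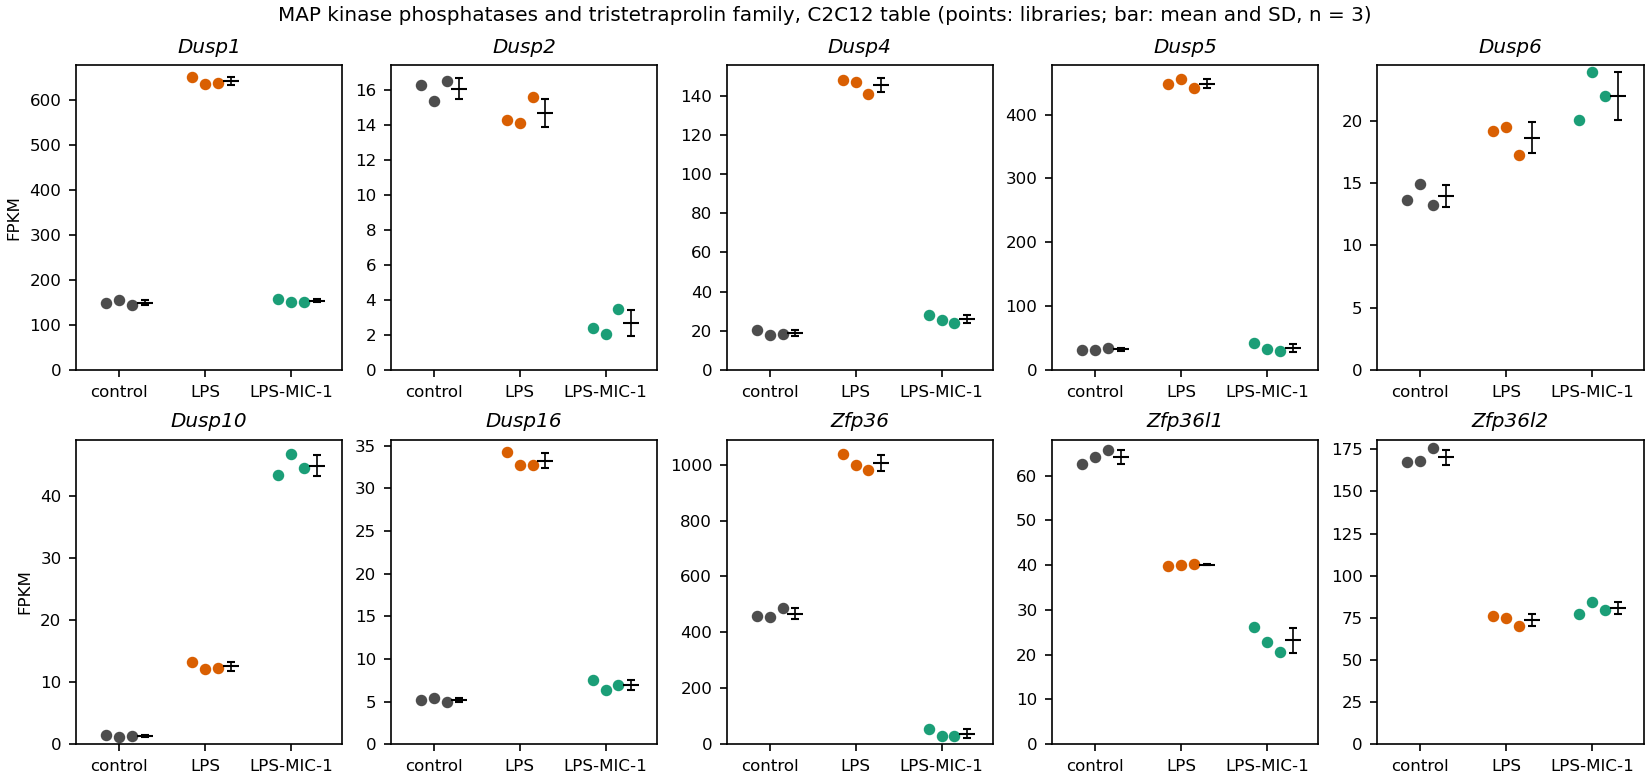
FPKM of each member in the 9 libraries labelled C2C12, with control, LPS and LPS-MIC-1 on the x axis, 1 point per library and the mean with its SD (n = 3) beside each group. Dusp1, Dusp4, Dusp5, Dusp16 and Zfp36 are highest with LPS, Dusp10 climbs from 1.34 to 12.6 and 45.0 FPKM on average, and Zfp36l1 and Zfp36l2 are highest in control.

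Among the nuclear enzymes, Dusp1, which acts mainly on p38 and JNK, had the highest level in all 9 C2C12 libraries among the 7 phosphatase members. Its level was 149, 156 and 144 FPKM in control, 651, 634 and 638 in LPS, and 157, 152 and 151 in LPS-MIC-1. The LPS libraries stood apart from the other 6, whereas control and LPS-MIC-1 overlapped. Dusp1 rose by 2.10 ± 0.042 on the log2 scale with LPS (adjusted p = 1.84e-08) and was lower with LPS-MIC-1 than with LPS (log2 change -2.07 ± 0.042, adjusted p = 4.61e-09). The difference between LPS-MIC-1 and control was 0.03, with a 95% interval of -0.06 to 0.13, and was -0.41 after quantile normalization (adjusted p = 7.70e-04).

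Dusp5, an ERK-selective nuclear phosphatase, showed the widest swing with LPS. It was listed at 30.8, 31.1 and 34.7 FPKM in control, at 447, 456 and 442 in LPS, and at 41.6, 32.1 and 30.05 in LPS-MIC-1. Again LPS stood alone and the other groups overlapped. The log2 change was 3.80 ± 0.114 for LPS against control (adjusted p = 9.58e-08) and -3.71 ± 0.114 for LPS-MIC-1 against LPS (adjusted p = 2.23e-08). LPS-MIC-1 and control differed by 0.09 (95% interval -0.17 to 0.35), and without LPS-MIC-1 replicate 1 this value was -0.05.

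Dusp4, a nuclear phosphatase of ERK, JNK and p38, took the same course at a lower level. Its values were 20.3, 17.6 and 18.6 FPKM in control, 148, 147 and 141 in LPS, and 28.1, 25.5 and 23.9 in LPS-MIC-1. Here none of the groups overlapped, and LPS-MIC-1 lay just above control. Dusp4 rose by 2.94 ± 0.073 with LPS (adjusted p = 4.79e-08) and fell by 2.49 from LPS to LPS-MIC-1 (adjusted p = 1.77e-08). The remaining difference from control was 0.45 (95% interval 0.28 to 0.62, adjusted p = 4.86e-04), below the fold limit for a call.

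Dusp2, a nuclear phosphatase first known from activated lymphocytes, was the exception among these enzymes. It was listed at 16.3, 15.4 and 16.5 FPKM in control, 14.3, 14.1 and 15.6 in LPS, and 2.41, 2.07 and 3.49 in LPS-MIC-1. Control and LPS overlapped, with a difference of -0.13 (95% interval -0.52 to 0.26). LPS-MIC-1 was the lowest group throughout, 5.47-fold below LPS (adjusted p = 2.11e-06) and 6.00-fold below control (adjusted p = 1.77e-06). Macrophage markers had a median log2 change of -8.14 in the same comparison with LPS, 9 of 9 tested being called lower, and their part in the fall of Dusp2 was not tested. These markers passed the filter largely through control and LPS, the groups in which they were high, so their count supports no general statement.

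Dusp6, the cytoplasmic ERK phosphatase, was called in none of the 3 comparisons. Its level was 13.6, 14.9 and 13.3 FPKM in control, 19.2, 19.5 and 17.2 in LPS and 20.1, 23.9 and 21.97 in LPS-MIC-1, so each group lay above the one before it without overlap. None of its differences reached a doubling. They were 0.42 for LPS against control (95% interval 0.22 to 0.61), 0.23 for LPS-MIC-1 against LPS (0.04 to 0.43) and 0.65 for LPS-MIC-1 against control (0.45 to 0.85).

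The JNK and p38 phosphatases Dusp10 and Dusp16 parted ways. Dusp10 was barely present in control, at 1.45, 1.21 and 1.35 FPKM, reached 13.3, 12.1 and 12.3 in LPS, and stood at 43.5, 46.9 and 44.5 in LPS-MIC-1. The groups were far apart and in this order in every library. Dusp10 rose by 3.14 ± 0.083 with LPS (adjusted p = 6.03e-08), by a further 1.83 ± 0.083 from LPS to LPS-MIC-1 (adjusted p = 1.74e-07) and by 4.97 ± 0.083, or 31.4-fold, from control to LPS-MIC-1 (adjusted p = 2.00e-09).

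Dusp16 instead followed Dusp1. It was listed at 5.17, 5.41 and 4.93 FPKM in control, 34.3, 32.7 and 32.7 in LPS and 7.53, 6.35 and 6.99 in LPS-MIC-1. Its change was 2.66 ± 0.077 with LPS (adjusted p = 8.49e-08) and -2.24 ± 0.077 from LPS to LPS-MIC-1 (adjusted p = 3.95e-08). LPS-MIC-1 lay above control without overlap, by 0.42 (95% interval 0.24 to 0.60), which did not pass the limits for a call.

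The tristetraprolin family diverged with LPS. Zfp36, whose product tristetraprolin destabilises Tnf mRNA, was listed at 458, 456 and 489 FPKM in control, at 1039, 998 and 980.4 in LPS, and at 55.2, 28.2 and 29.8 in LPS-MIC-1. The 3 groups were separate. LPS-MIC-1 replicate 1, the library with the most macrophage transcripts in its group, had the highest Zfp36 of that group, whereas Dusp2 was highest in replicate 3. The part of macrophage transcripts in either level was not tested. For Zfp36, LPS and control differed by 1.11 ± 0.226, which missed the C2C12 limit on adjusted p (0.00287). It passed without LPS-MIC-1 replicate 1, whose spread enters the shared error (adjusted p = 1.67e-06), and passed with the 6 libraries compared alone (adjusted p = 3.37e-06). From LPS to LPS-MIC-1, Zfp36 fell 27.9-fold (log2 change -4.80 ± 0.226, adjusted p = 2.12e-07), and it was 13.0-fold below control (adjusted p = 1.16e-06).

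Zfp36l1 and Zfp36l2, its relatives in mRNA decay, were highest in control. Zfp36l1 was listed at 62.7, 64.2 and 65.8 FPKM in control, 39.9, 40.1 and 40.2 in LPS and 26.1, 22.8 and 20.6 in LPS-MIC-1, stepping down without overlap. Single steps of -0.68 with LPS and -0.79 from LPS to LPS-MIC-1 stayed under the fold limit (adjusted p = 1.15e-04 and 2.08e-05), and the total of -1.47 ± 0.079 was called (adjusted p = 5.04e-07). Zfp36l2 was listed at 168, 168 and 176 FPKM in control, 76.2, 74.9 and 69.9 in LPS and 77.4, 84.6 and 79.9 in LPS-MIC-1. It fell by 1.21 with LPS (adjusted p = 4.94e-07) and was called lower than control in LPS-MIC-1 as well (log2 change -1.08, adjusted p = 2.44e-07). LPS-MIC-1 exceeded LPS by 0.13 (95% interval 0.01 to 0.25), not a call, and the value was -0.11 after quantile normalization.

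By non-overlap of groups, 7 members were higher and 2 lower with LPS than in control, where 39.4% and 40.1% of all genes tested were. For LPS-MIC-1 against LPS the counts were 3 higher and 7 lower (41.8% and 43.7% of all genes), and against control 4 and 4 (40.3% and 42.7%).

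**Figure D2:**
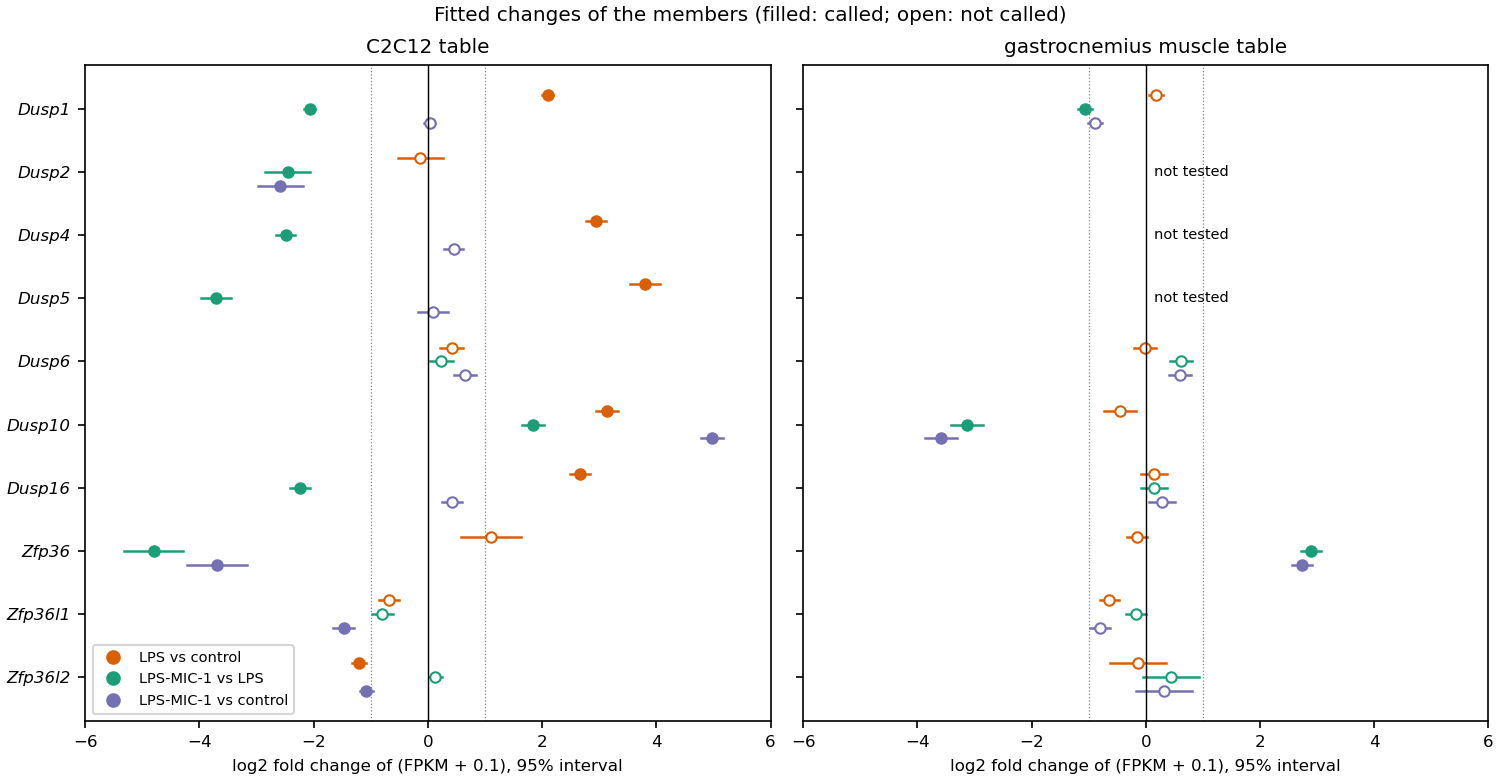
Fitted log2 fold change of each member with its 95% interval in 3 comparisons, C2C12 on the left and muscle on the right, filled where called and open where not, with dotted lines at a log2 change of -1 and 1. Dusp10 and Zfp36 lie on opposite sides of 0 in C2C12 and muscle for LPS-MIC-1 against LPS (1.83 and -4.80 in C2C12, -3.13 and 2.89 in muscle).

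Gastrocnemius muscle held a different set of these mRNAs. Dusp1 and Dusp10 made up most of the summed signal of the 7 phosphatase members in control and LPS, and Zfp36l1 rather than Zfp36 led the tristetraprolin family in control. LPS alone called 0 of the 7 members tested by limma, where 0.654% of 9475 genes were called higher and 0.591% lower (1.25% in all). At an unadjusted p under 0.05 there were 3 members (29.6% of all genes), and at an adjusted p under 0.05 with no fold limit 2, Dusp10 and Zfp36l1 (15.7% of all genes). LPS-MIC-1 against LPS called Zfp36 higher (9.67% of all genes) and Dusp1 and Dusp10 lower (5.44%, and 15.1% in either direction). Against control, Zfp36 was called higher (9.33%) and Dusp10 lower (6.12%, and 15.5% in either direction). These are whole-tissue RNA, in which fewer cells of a type and less RNA per cell cannot be told apart.

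**Figure D3:**
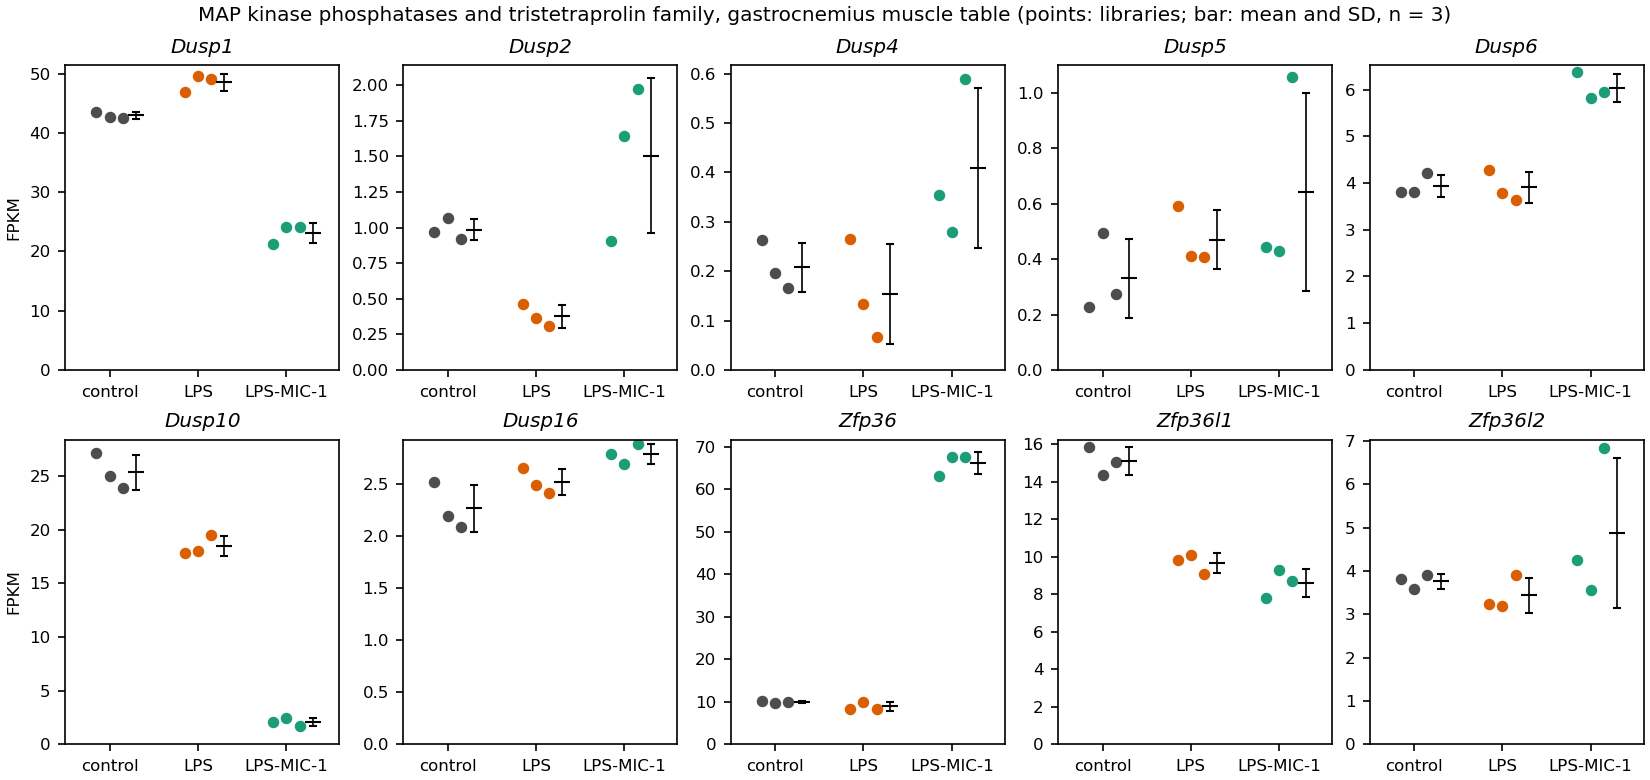
FPKM of each member in the 9 gastrocnemius libraries, with control, LPS and LPS-MIC-1 on the x axis, 1 point per mouse and the mean with its SD (n = 3) beside each group. Zfp36 in LPS-MIC-1 (63.1 to 67.7 FPKM) and Dusp10 in LPS-MIC-1 (1.65 to 2.41 FPKM) stand apart from every other library.

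Zfp36 was the 1 member called higher in muscle. It was listed at 10.1, 9.59 and 9.93 FPKM in control and at 8.37, 10.0 and 8.22 in LPS, which overlapped, and at 63.1, 67.5 and 67.7 in LPS-MIC-1, far above both. LPS and control differed by -0.16 (95% interval -0.33 to 0.02). LPS-MIC-1 exceeded LPS 7.40-fold (log2 change 2.89 ± 0.076, adjusted p = 1.81e-08) and control 6.63-fold (2.73 ± 0.076, adjusted p = 2.44e-08). In the same order of LPS-MIC-1 libraries the summed macrophage markers were 31.2, 29.2 and 160 FPKM, against 19.7 to 22.5 with LPS. The summed neutrophil markers were 14.7, 19.8 and 18.3 FPKM, against 1.76 to 2.02 with LPS, and the part of either in the Zfp36 level was not tested.

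Dusp10 went the other way. Its level was 27.2, 25.01 and 23.9 FPKM in control, 17.8, 18.1 and 19.5 in LPS and 2.05, 2.41 and 1.65 in LPS-MIC-1. The groups stepped down in this order without overlap. The step from control to LPS was -0.46 ± 0.122 (adjusted p = 0.0390), short of the fold limit. LPS-MIC-1 lay 8.77-fold below LPS (log2 change -3.13 ± 0.122, adjusted p = 1.88e-07) and 12.03-fold below control (-3.59 ± 0.122, adjusted p = 7.53e-08).

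Dusp1, the most abundant of the 7 phosphatase members in 9 of 9 muscle libraries, was listed at 43.6, 42.7 and 42.5 FPKM in control, 46.8, 49.6 and 49.0 in LPS and 21.2, 24.0 and 24.2 in LPS-MIC-1. LPS lay slightly above control without overlap, by 0.17 (95% interval 0.05 to 0.30, adjusted p = 0.0668). LPS-MIC-1 was the lowest group, 2.09-fold below LPS (adjusted p = 9.42e-07). Its difference from control, -0.89 ± 0.054 (adjusted p = 2.61e-06), fell short of the fold limit and was called after quantile normalization, at -1.03.

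Zfp36l1 was listed at 15.9, 14.4 and 15.1 FPKM in control, 9.83, 10.1 and 9.10 in LPS and 7.83, 9.27 and 8.72 in LPS-MIC-1. Both LPS groups lay below control and overlapped each other. The differences from control were -0.64 for LPS (95% interval -0.81 to -0.46, adjusted p = 0.00105) and -0.81 for LPS-MIC-1 (-0.98 to -0.63, adjusted p = 3.49e-05), neither a call. Summed endothelial markers were also below control in both LPS groups, at 77.1 to 81.7 FPKM in control, 49.6 to 51.4 with LPS and 54.1 to 59.4 with LPS-MIC-1. Unlike Zfp36l1, their sum was higher with LPS-MIC-1 than with LPS. The part of endothelial cells in the Zfp36l1 levels was not tested.

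Zfp36l2 was lower still in muscle, at 3.81, 3.58 and 3.90 FPKM in control, 3.23, 3.19 and 3.91 in LPS and 4.25, 3.56 and 6.85 in LPS-MIC-1. All groups overlapped, and replicate 3 of LPS-MIC-1, which also had the most macrophage transcripts, was the highest. The part of macrophage transcripts in this value was not tested. The interval of LPS-MIC-1 against LPS ran from -0.05 to 0.93.

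Of the remaining phosphatases tested in muscle, Dusp6 was listed at 3.80, 3.81 and 4.22 FPKM in control, 4.29, 3.79 and 3.64 in LPS and 6.38, 5.81 and 5.94 in LPS-MIC-1. LPS-MIC-1 stood above the other groups, by 0.62 against LPS (95% interval 0.42 to 0.81, adjusted p = 3.40e-04) and 0.60 against control (0.41 to 0.80, adjusted p = 3.82e-04), and both were under the fold limit. Dusp16 was listed at 2.52, 2.19 and 2.09 FPKM in control, 2.66, 2.49 and 2.41 in LPS and 2.79, 2.69 and 2.89 in LPS-MIC-1, with differences of 0.15 (95% interval -0.08 to 0.38) for LPS against control and 0.14 (-0.09 to 0.37) for LPS-MIC-1 against LPS. LPS-MIC-1 lay above control without overlap, by 0.29 (95% interval 0.06 to 0.52, adjusted p = 0.0343), which was not a call.

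The 3 members under the filter were scarce in muscle. Dusp2 was listed at 0.969, 1.06 and 0.922 FPKM in control, 0.463, 0.362 and 0.307 in LPS and 0.904, 1.64 and 1.97 in LPS-MIC-1, lowest in LPS in every library. Dusp4 ranged from 0.0657 to 0.590 and Dusp5 from 0.226 to 1.06 FPKM over the 9 libraries. The highest value of Dusp2, Dusp4 and Dusp5 in LPS-MIC-1 was in replicate 3 each time.

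By non-overlap, 1 of the 7 tested members was higher and 2 lower with LPS than in control in muscle (18.8% and 17.7% of all genes). LPS-MIC-1 had 3 higher and 2 lower against LPS (32.5% and 31.7%), and 3 higher and 3 lower against control (33.4% and 31.1%).

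As FPKM is per transcript length, the members can be added up within a library. In the libraries labelled C2C12, the 7 phosphatases summed to 233 to 241 FPKM in control libraries, to 1299 to 1327 with LPS and to 282 to 300.1 with LPS-MIC-1. Dusp1 gave 61.7 to 64.5% of this sum in control, 48.2 to 49.1% with LPS and 52.3 to 53.5% with LPS-MIC-1. Dusp5 held 12.9 to 14.9% in control and 33.7 to 34.7% with LPS, and Dusp10 0.502 to 0.614% in control and 14.5 to 16.3% with LPS-MIC-1. Within the tristetraprolin family Zfp36 held 66.3 to 66.9% in control, 89.7 to 89.9% with LPS and 20.8 to 34.8% with LPS-MIC-1, where Zfp36l2 led with 48.8 to 62.4%.

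In muscle, the phosphatase sum was 74.1 to 78.5 FPKM in control, 72.9 to 75.3 with LPS and 34.1 to 38.3 with LPS-MIC-1. The Dusp10 share was 32.3 to 34.6%, 24.1 to 25.9% and 4.31 to 6.46% in the same order, and Dusp6 moved from 4.85 to 5.69% in control to 15.5 to 18.7% in LPS-MIC-1. Zfp36 held 34.0 to 34.8% of the tristetraprolin family in control, 38.7 to 42.9% with LPS and 81.3 to 84.0% with LPS-MIC-1. Shares of 1 sum are not independent of each other, and they are given as a description.

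**Figure D4:**
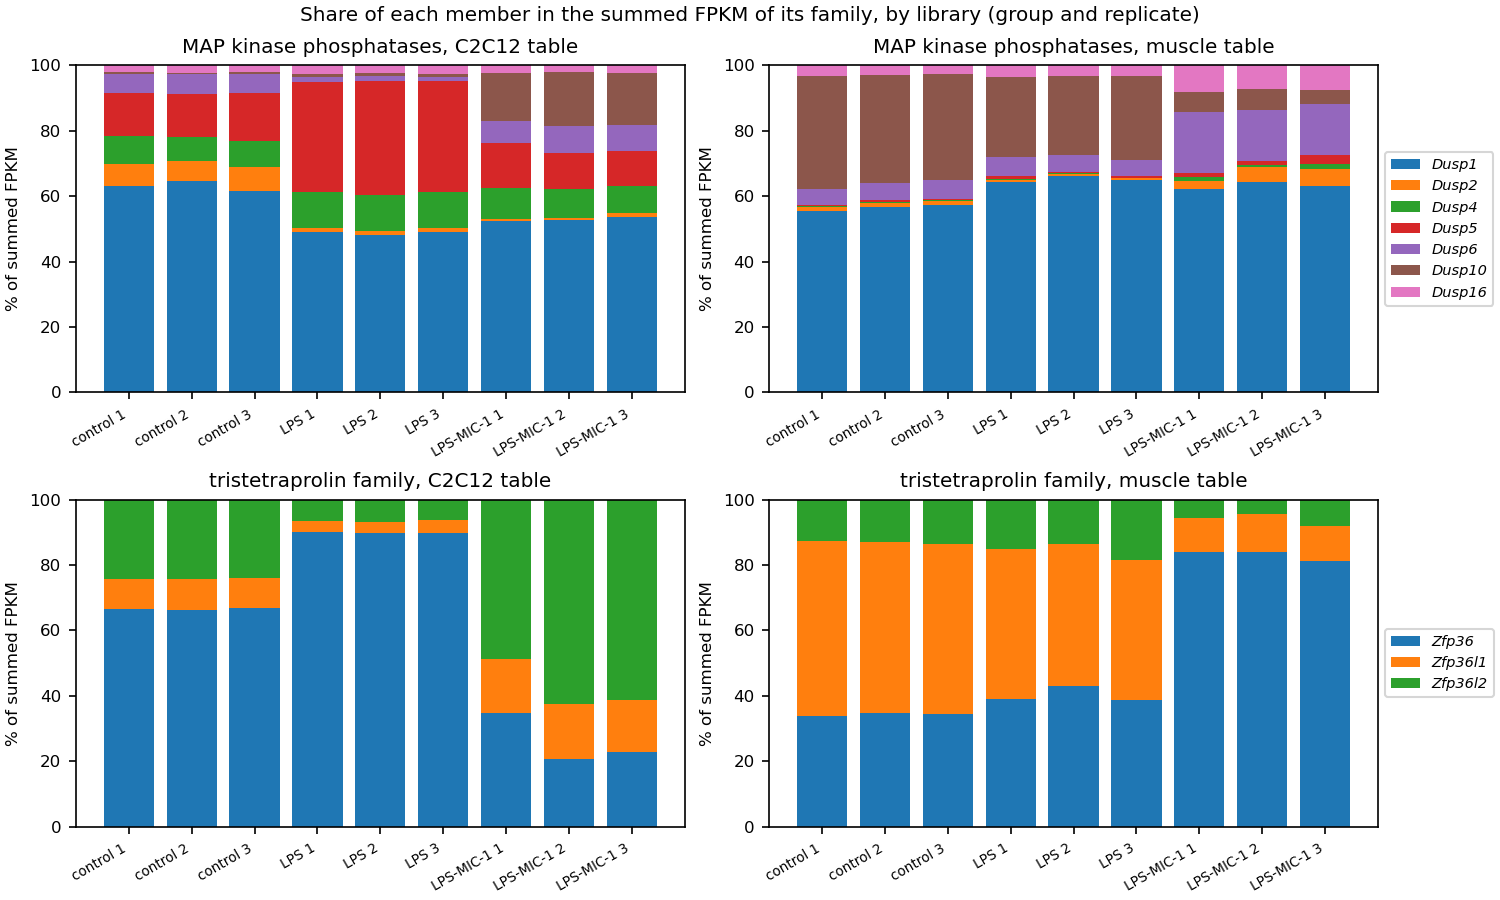
Share of each member in the summed FPKM of its family (y axis, %) in every library, phosphatases above and tristetraprolin family below, C2C12 on the left and muscle on the right. Dusp5 widens in the C2C12 LPS libraries, Dusp10 shrinks to 4.31 to 6.46% in muscle LPS-MIC-1, and Zfp36 fills 81.3 to 84.0% of its family there.

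Other genes of the pathways were taken from 13 lists. In C2C12, LPS against control called 1 of 2 tested further MAP kinase phosphatases, Dusp8, a JNK and p38 phosphatase that was listed at 0.138 ± 0.0492 FPKM in control and 7.18 ± 0.394 in LPS (SD, n = 3; log2 change 4.96). Of 15 atypical dual-specificity phosphatases, 2 were higher, with Dusp14 at 1.45 ± 0.254 and 68.3 ± 0.694 FPKM (SD, n = 3) and Dusp13 at a log2 change of 3.67. Dusp8 and Dusp13, the latter at a mean of 0.0629 FPKM in control, passed the filter only through groups in which they were high. Among the kinases, 1 of 9 MAP kinases was called higher (Mapk11, a p38 kinase, 1.17), 0 of 7 MAP kinase kinases, 2 of 12 MAP kinase kinase kinases (Map3k2 and Map3k3) and 2 of 8 downstream kinases (Rps6ka2 and Mknk2), with none lower, where 10.9% of all genes were called higher and 10% lower. Without LPS replicate 3 the MAP kinase kinase kinase count was 1.

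ERK-responsive genes and inhibitors split further. Of 10 ERK-responsive genes, 4 were higher and 1 lower with LPS, led by the transcription factor gene Fosl1 (0.335 ± 0.120 to 76.1 ± 2.10 FPKM, SD, n = 3) and by Phlda1 (log2 change 5.30). Of 5 Sprouty and Spred inhibitors of ERK signalling, 1 was higher (Spred3, 3.32), and 2 without control replicate 3. Among the partners of tristetraprolin in decay the calls were 1 higher and 1 lower of 17 CCR4-NOT genes (the antiproliferative cofactors Btg1 and Btg2), 0 of 9 decapping genes and 0 of 7 genes of the Ywha and Sfn adaptor proteins that bind phosphorylated tristetraprolin. Of 10 other AU-rich element binding proteins and related decay factors, 2 were higher, Zc3h12a (the RNase regnase, 2.43) and Rc3h1 (roquin, 1.22), and 1 was lower. Of 12 transcripts known as tristetraprolin targets, 6 were higher and 0 lower. Il10 and Cxcl1 among them passed the filter only through the group in which they were high, so the count supports no general statement. Ptgs2, the inducible cyclooxygenase, went from 15.9 ± 0.620 to 2684 ± 60.4 FPKM (SD, n = 3), and Il6 was listed at 0 in every control library and at 54.4 to 61.0 in LPS. With the 6 libraries alone, 10 of the 12 passed.

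From LPS to LPS-MIC-1 in C2C12 most of these lists had calls, as did 49.9% of all genes. CCR4-NOT genes had 0 higher and 8 lower of 17 (median -1.12), decapping genes 0 and 6 of 9 (-1.27), and tristetraprolin targets, under the same limit on what their count supports, 1 and 10 of 12, beside a median of -0.05 over all genes tested. The target called higher was the chemokine gene Cxcl1, at 0.436 ± 0.622 FPKM with LPS and 491 ± 86.4 with LPS-MIC-1 (SD, n = 3), and Cxcl2, called lower, was listed at 8367 ± 41.9 FPKM with LPS and at 80.3 ± 131 with LPS-MIC-1 (SD, n = 3). The Cxcl2 level in LPS-MIC-1 ran from 2.87 to 232 FPKM, highest in replicate 1. MAP kinases had 2 higher and 4 lower of 9, with Mapk12, the muscle p38 kinase, at 5.28. The counts were 1 and 3 of 7 for MAP kinase kinases, 1 and 6 of 12 for MAP kinase kinase kinases, 1 and 5 of 8 for downstream kinases, 2 and 3 of 5 for Sprouty and Spred genes and 2 and 5 of 10 for ERK-responsive genes. They were 5 and 3 of 15 for atypical phosphatases, 0 and 0 of 2 for the further MAP kinase phosphatases, 2 and 2 of 10 for other AU-rich element binding proteins and 1 and 1 of 7 for Ywha and Sfn genes. Mapk12, Spry4 and Dusp27 had means of 0.597 FPKM or less in control and LPS and passed the filter only through LPS-MIC-1. Map3k6, the 1 higher gene among the MAP kinase kinase kinases, reached a mean of 7.46 FPKM with LPS-MIC-1. Its means were only 0.712 with LPS alone and 1.21 in control, so it too passed the filter only through LPS-MIC-1. The counts of higher genes in the lists of all these genes therefore support no general statement. Macrophage markers (0 higher and 9 lower of 9) and myogenic markers (6 higher of 6) moved with the same comparison, and the part of each in these counts was not tested. The tested myogenic markers passed the filter only through LPS-MIC-1, the group in which they were high, so their count supports no general statement. The macrophage markers passed largely through control and LPS, where they were high, with a median of 0.192 to 6.15 FPKM per library in LPS-MIC-1. Their count supports no general statement either.

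In muscle, LPS alone called few genes of the lists. Tob2, a CCR4-NOT cofactor, was higher (12.2 ± 0.237 to 33.6 ± 0.713 FPKM, SD, n = 3, log2 change 1.45). The chemokine gene Ccl2 was higher (mean 0.159 to 0.564 FPKM, log2 change 1.35, lost without LPS replicate 1 or replicate 2). The ERK-responsive gene Myc was lower (mean 1.15 to 0.468 FPKM, log2 change -1.14, with 2 genes of that list called without LPS-MIC-1 replicate 3). Ccl2 and Myc passed the filter only through LPS-MIC-1 (means 10.4 and 3.55 FPKM), a group outside this comparison, so both calls rest on low levels. In the other 10 lists no gene was called, and 118 of 9475 genes were in all.

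From LPS to LPS-MIC-1 in muscle, the CCR4-NOT list had 3 higher and 1 lower of 15. Btg2 went from 2.16 ± 0.321 to 113 ± 2.79 FPKM (SD, n = 3; log2 change 5.65, adjusted p = 1.61e-09) and the related Tob1 from 184 ± 3.19 to 55.7 ± 2.51 (log2 change -1.72). Of 6 tested tristetraprolin targets, 5 were higher and 1 lower, with a median of 3.81 against -0.01 over all genes. Cxcl1 reached 12.8 ± 1.18 FPKM from 0.128 ± 0.0564 (SD, n = 3), and Cxcl2 4.14 ± 0.708 from 0.0554 ± 0.0480. These targets passed the filter through the group in which they were high, so their count supports no general statement. Against control 5 of 6 were higher, and 3 were without LPS-MIC-1 replicate 3. The neutrophil marker sum was 1.76 to 2.02 FPKM with LPS and 14.7 to 19.8 with LPS-MIC-1, and the macrophage sum 19.7 to 22.5 and 29.2 to 160. Their part in the chemokine levels was not tested.

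Of the signalling lists in this comparison, ERK-responsive genes had 3 higher and 0 lower of 7, with Phlda1 at 3.01 ± 0.630 and 21.3 ± 0.822 FPKM (SD, n = 3) and Myc at a log2 change of 2.68. Myc passed the filter only through LPS-MIC-1, the group in which it was high. The kinase gene Map3k6 rose from 2.19 ± 0.197 to 32.3 ± 1.09 FPKM and its relative Map3k5 fell (log2 change -2.14), the calls among 10 MAP kinase kinase kinases. Mknk2, a kinase downstream of ERK and p38, rose from 126 ± 3.00 to 296 ± 20.1 FPKM, the 1 call among 8. MAP kinases had 2 lower of 8 (Mapk11 and Nlk), and 1 without LPS replicate 3, LPS-MIC-1 replicate 1 or LPS-MIC-1 replicate 3. Dusp26 was the 1 atypical phosphatase of 16 called (6.41 ± 0.712 to 18.8 ± 1.25 FPKM), and 3 were called without LPS-MIC-1 replicate 3. Spry4 was the 1 Sprouty or Spred gene of 6 (1.03), with 2 called without LPS-MIC-1 replicate 1. Zc3h12a (1.35) and Rc3h1 (1.08) were higher among 10 other AU-rich element binding proteins, Sfn was lower among 7 adaptor genes (-1.18, lost without LPS replicate 3), and 0 of 7 MAP kinase kinases, 0 of 7 decapping genes and 0 of 2 further MAP kinase phosphatases were called.

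**Figure D5:**
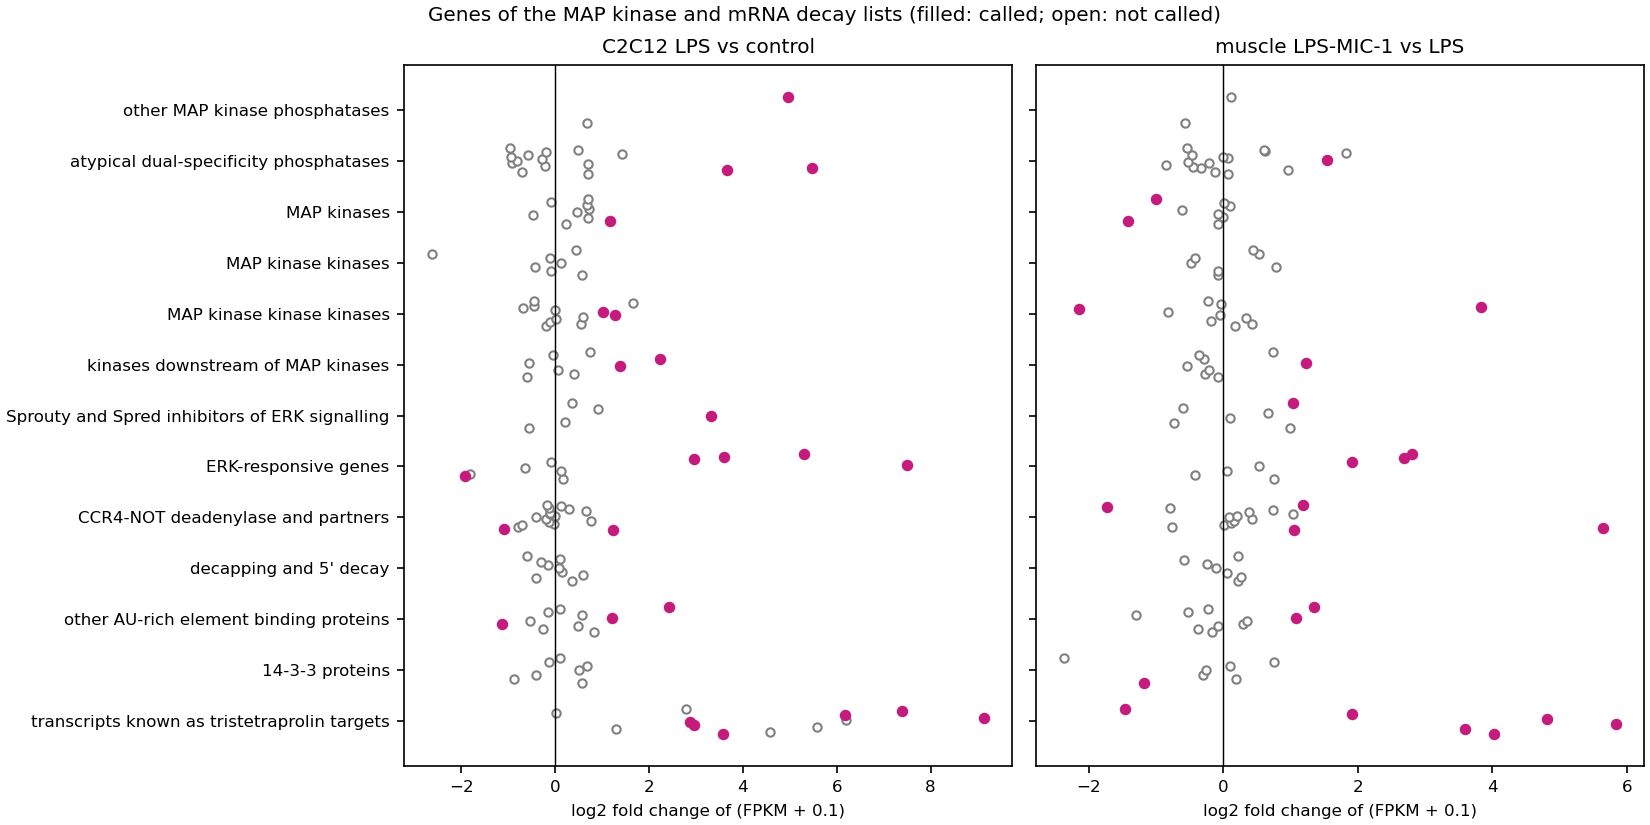
Log2 fold change of every tested gene of the 13 pathway lists (rows), for LPS against control in C2C12 (left) and for LPS-MIC-1 against LPS in muscle (right), filled where called. The tristetraprolin targets reach furthest to the right in C2C12, and in muscle they do so together with Btg2 at 5.65. In muscle the targets Cxcl1, Cxcl2 and Ccl2 passed the filter only through LPS-MIC-1, the group in which they were high, so their position supports no general statement.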

How the data were processed

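RNA-seq libraries of C2C12 cells and of mouse gastrocnemius were analysed from the 2 tables of FPKM that the authors deposited, 1 value per gene and library. The authors pseudoaligned reads with kallisto and summarised them per gene with tximport; the submitters' processing notes name mm9 as genome build. Strand handling is not given in the sources used here. Depth per library is unknown from FPKM, so precision rests on the 3 libraries per group. The muscle table holds 11 columns without a name, 9 of them with per-sample values, which were not used. Deposited result tables hold base means, log2 fold changes and p-values of the authors' own comparisons made with DESeq2, and were not used.

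Groups followed the sample labels. limma 3.58.1 (R 4.3.3) was run once per experiment on log2(FPKM + 0.1), taking 3 group means, a trended prior and a single spread estimate for each gene from all 9 libraries. Testing was limited to a mean FPKM over 1, which left 10877 genes in C2C12 and 9475 in muscle. A call needed an absolute log2 fold change over 1 and a Benjamini-Hochberg adjusted p under 0.001 (C2C12) or 0.05 (muscle), limits taken from the study. The 2 tables were normalized apart, so nothing was tested between them. The code was tested on simulated data. Alternatives were pseudocounts of 1 and 0.01, no filter (genes above 0 in at least 3 libraries), median-ratio scaling, quantile normalization, an untrended prior, the 6 libraries compared alone, the replicate number as a block, each library left out and, in C2C12, an adjusted p under 0.05. Plots used Python 3.11.15 and matplotlib 3.10.9.

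The members and all gene lists were chosen with earlier results of these data known. Named are all members, in each pathway list the 2 called genes with the largest absolute change, the 3 most abundant genes of a marker list, and, per called member, the 2 tested genes with the nearest profile over the 9 libraries. Genes outside this rule were chosen after their values were seen: Myod1, Myf5, Myog, Pax7 and Il10. No genome sequence was used, and no coordinates are given.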

Additional observations from a re-analysis of the deposited data

Results flagged for a closer look

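For 3 of the 7 members tested in both experiments every library of a group moved one way in C2C12 and the opposite way in muscle, relative to all libraries of the group it was compared with. Non-overlap was common over all genes, for LPS-MIC-1 against LPS 41.8% higher and 43.7% lower in C2C12, and 32.5% and 31.7% in muscle. How many of all genes moved in opposite directions was not counted, so the 3 members support no general statement. The difference between the experiments was not tested, because the tables were normalized apart. Dusp10 had a log2 change of 3.14 in C2C12 and -0.46 in muscle for LPS against control, of 1.83 and -3.13 for LPS-MIC-1 against LPS, and of 4.97 and -3.59 for LPS-MIC-1 against control. Zfp36 had -4.80 in C2C12 and 2.89 in muscle for LPS-MIC-1 against LPS, and -3.70 and 2.73 for LPS-MIC-1 against control. Dusp16 had -2.24 in C2C12 and 0.14 in muscle for LPS-MIC-1 against LPS, the muscle value not being a call. Dusp2 and Dusp4, which were under the filter in muscle, were also lower in C2C12 (-2.45 and -2.49 for LPS-MIC-1 against LPS) and higher in muscle without overlap (Dusp2 at 0.904 to 1.97 against 0.307 to 0.463 FPKM, Dusp4 at 0.280 to 0.590 against 0.0657 to 0.265 FPKM). The C2C12 values set libraries with macrophage markers (8633 to 8687 FPKM in control, 6315 to 6509 in LPS) against libraries with few of them (79.1 to 253 FPKM).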

How the results depend on the processing

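Of the alternative values for single members, 886 kept direction and side of the limits, 7 changed sign, none of them a call, and 4 became calls. After quantile normalization, Zfp36l2 in C2C12 LPS-MIC-1 against LPS was -0.11 (adjusted p = 0.127), Dusp1 in C2C12 LPS-MIC-1 against control -0.41 (adjusted p = 7.70e-04) and Dusp6 in muscle LPS against control 0.0097. With each library left out, Dusp5 in C2C12 LPS-MIC-1 against control ran from -0.050 to 0.18 and Dusp6 in muscle LPS against control from -0.082 to 0.033. Without the FPKM filter 1 member (Dusp2, -1.20, adjusted p = 0.0380) was called in muscle LPS against control in place of 0, and 5 in place of 3 in LPS-MIC-1 against LPS (Dusp2 at 1.70 and Dusp4 at 1.03 added). The number of members called kept within 1.5 times the main count in the other 103 cases. Quantile normalization shifted the median of all genes by -0.11 in muscle LPS-MIC-1 against LPS and by -0.12 against control, and changed the calls from 916 higher and 515 lower to 768 and 680, and from 884 and 580 to 773 and 733. Over all genes, muscle LPS against control had 71 calls with a pseudocount of 1 in place of 118, and without the filter the muscle LPS-MIC-1 comparisons had 2158 in place of 1431 and 2240 in place of 1464. No shared effect of the replicate number was seen, since same-numbered libraries' deviations correlated by -0.076 to 0.057 in C2C12 and -0.054 to 0.082 in muscle. Libraries with different numbers correlated by -0.091 to 0.12 and by -0.075 to 0.081. With 3 libraries a group these values cannot exclude that samples were paired. With the replicate block the members called were 6, 7 and 5 in the C2C12 comparisons and 0, 3 and 2 in muscle, as without it, and all-gene calls in C2C12 LPS against control went from 2275 to 2056. The causes were not tested. With 3 libraries a group, low levels such as those of Dusp4 and Dusp5 in muscle limit what could be detected.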

Other observations

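Profiles nearest to a called member were found by the root mean square distance between log2(FPKM + 0.1) values centred on each gene's mean over the 9 libraries of an experiment, among 10867 genes in C2C12 and 9468 in muscle. These distances are descriptions over 9 libraries that share their groups. In C2C12 the nearest profile to Dusp1 was that of Dnajb9, an endoplasmic reticulum chaperone gene (distance 0.043), which was listed at 11.9 ± 1.03 FPKM in control, 52.6 ± 0.874 with LPS and 12.5 ± 0.169 with LPS-MIC-1 (SD, n = 3). Dusp4 and Dusp16 both had Hspa5, which encodes the main chaperone of the same compartment, as second nearest (0.10 and 0.12), after Slc2a1 and Metrnl. Nearest to Dusp5 was Casz1 (0.15), to Dusp10 Ccbe1 (0.18), to Dusp2 Tbc1d22a (0.12), to Zfp36 Parp14 (0.14), to Zfp36l1 Sfxn1 (0.064) and to Zfp36l2 Dnajc11 (0.058).

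In muscle the nearest profile to Dusp10 was that of Ky, a gene for a muscle Z-disc protein, at 67.9 ± 2.41 FPKM in control, 44.8 ± 0.818 with LPS and 5.49 ± 0.134 with LPS-MIC-1 (SD, n = 3, distance 0.13). Zfp36 was nearest to Fam32a, at 7.93 ± 0.228, 6.57 ± 0.160 and 50.8 ± 1.21 FPKM (SD, n = 3, distance 0.081), and Dusp1 to Zfp568 (0.073) and Tnfaip2 (0.074).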
